A study of Mus musculus with 3 samples.

Results

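The genes described here are 8 members of the insulin-like growth factor (IGF) system, taken by symbol from gene-level count tables that list 43280 genes. They are the ligand gene Igf1, the receptor gene Igf1r and the binding-protein genes Igfbp2, Igfbp3, Igfbp4, Igfbp5, Igfbp6 and Igfbp7. The RNA came from E15.5 mouse skeletal mesenchyme, calvarial according to the series, and 1 library was sequenced for each of 3 genotypes. The dTF-cKO library came from beta-catenin fx/dm tissue with Dermo1-Cre, the cKO library from fx/fx tissue with Dermo1-Cre, and the control library from fx/fx tissue without Cre. Floxed beta-catenin is shared by all of them, on both chromosomes in the cKO and control and on 1 chromosome in the dTF-cKO. What dm stands for is not given in the labels. A mouse beta-catenin allele known as dm is signalling-defective: its product still works in cell adhesion and does not drive transcription. Dermo1-Cre places the recombinase at the Twist2 gene, which is active in mesenchymal cells. Since fx/dm tissue was sequenced only with Cre, carrying dm and losing the floxed allele cannot be told apart. How many embryos went into each library is not given in the sources used here.

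IGF1 and IGF2 are secreted growth factors that activate the receptor tyrosine kinase IGF1R, which signals through the IRS adaptors to PI3K and AKT and through RAS to MAP kinases. Most IGF outside cells is held by binding proteins, which extend its life, keep it from the receptor, or release it near cells when proteases cut them. Bone is a classic site of this system: osteoblasts make IGFs and several binding proteins, and IGFs and IGFBP5 are stored in bone matrix. IGFs act on the growth of bone, cartilage, muscle and skin.

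With 1 library per genotype, no difference between genotypes could be tested. Every difference below is between libraries, and intervals are 95% counting intervals that leave out the spread between embryos. Libraries held between 2678457 and 3634819 counts. Values are CPM, counts scaled for library size with TMM factors, and 12127 genes with a mean of at least 5 CPM over the libraries were measured. All 8 members passed that minimum. Igfbp6 passed it through the cKO and control, since it stood below 5 CPM in the dTF-cKO. A gene is called higher or lower when its log2 difference, computed with a prior count of 2, is at least 1 in size.

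The tissue in the libraries differed as well. Beta-catenin mRNA (Ctnnb1) stood at 442 CPM in the dTF-cKO and 745 CPM in the cKO, against 1026 CPM in the control. All 10 skeletal mesenchyme markers had counts in every library, and their summed level was 8219 CPM in the dTF-cKO and 39068 CPM in the cKO, against 180248 CPM in the control. Col1a1 and Col1a2 made up most of that sum, and the median log2 difference of the 10 markers from the control was -3.28 in the dTF-cKO and -0.77 in the cKO. The 12 epidermal markers summed to 13841 CPM in the dTF-cKO and 23112 CPM in the cKO, against 148 CPM in the control. In a bulk sample, fewer cells of a type and less RNA per cell cannot be told apart. Xist, the X-inactivation RNA of female cells, had 2 counts in the dTF-cKO, 0 in the cKO and 1233 in the control. The 4 Y-linked genes examined had 444 counts in the dTF-cKO, 362 in the cKO and 0 in the control. Effects of sex and genotype therefore cannot be told apart in comparisons with the control, whereas the Cre-carrying libraries had the same sex pattern. One alternative scaling, called the stroma scaling, bears on every value here. It sets the median difference of 38 markers of dermis, meninges, pericytes with smooth muscle, and endothelium to 0 in each comparison. It moved the median of all genes by 1.83 log2 units for the dTF-cKO against the control and by -0.40 for the cKO against the control, so directions that turn under it are named beside each result.

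The order of the binding-protein mRNAs differed between the libraries. Igfbp5 was the leading binding-protein transcript of the control and Igfbp2 that of the dTF-cKO, with the cKO between them. The 6 binding-protein genes together held 6043 counts in the dTF-cKO (0.208% of the library, 0.203% to 0.213%), 8068 in the cKO (0.301%, 0.295% to 0.308%) and 13842 in the control (0.381%, 0.375% to 0.387%). After scaling, the pool was 1.79-fold lower in the dTF-cKO relative to the control (1.74 to 1.85), but under the stroma scaling it was 1.98-fold higher. Against the cKO its ratio was 0.757 (0.732 to 0.782), which came to 2.69 under the stroma scaling. Within that pool Igfbp2 took 59.4% in the dTF-cKO (58.1% to 60.6%), 14.1% in the cKO (13.4% to 14.9%) and 7.64% in the control (7.21% to 8.10%). Igfbp5 took 8.36% in the dTF-cKO (7.67% to 9.08%), 44.5% in the cKO (43.4% to 45.6%) and 56.9% in the control (56.03% to 57.7%). These shares are ratios inside a library and do not depend on how the libraries were scaled. Their exact intervals do not overlap between any pair of libraries for either gene. For each of the other binding proteins, the intervals of some libraries overlapped. These intervals cover counting error only, and the share of all genes with such separate intervals was not computed. Igfbp4 varied least in relative terms among shares of counts, at 25.9% in the dTF-cKO, 31.5% in the cKO and 27.3% in the control. Per kilobase of exons its share was 13.9% in the dTF-cKO, 26.6% in the cKO and 26.8% in the control. Igfbp3 held 4.85% in the dTF-cKO, 6.88% in the cKO and 6.88% in the control, while Igfbp6 and Igfbp7 stayed between 0.215% and 2.64%. The count ratio of Igfbp2 to Igfbp5 was 7.11 in the dTF-cKO (6.47 to 7.82), 0.317 in the cKO (0.297 to 0.339) and 0.134 in the control (0.126 to 0.143).

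**Figure D1:**
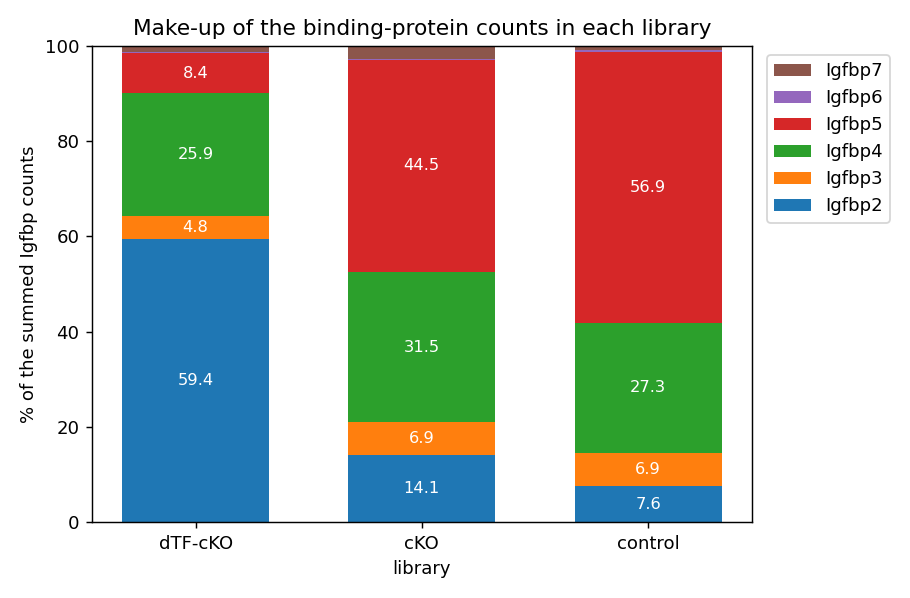
Make-up of the summed binding-protein counts in each library, in percent (vertical axis, from 0 to 100), with the dTF-cKO, cKO and control from left to right. Igfbp2 fills 59.4% of the dTF-cKO bar and 7.64% of the control bar, and Igfbp5 fills 8.36% of the dTF-cKO bar and 56.9% of the control bar.

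Igfbp2 and Igfbp5 are neighbours, and their positions are given together because they differed in opposite directions. In GENCODE vM21 on GRCm38 (the mm10 build of the submitters' processing notes), Igfbp2 (ENSMUSG00000039323.18) lies at chr1:72824503-72852474 on the plus strand. Igfbp5 (ENSMUSG00000026185.8) lies at chr1:72857932-72874884 on the minus strand. The pair point at each other with a gap of 5457 bases that holds 0 protein-coding genes. In the same annotation Igf1 (ENSMUSG00000020053.18) lies at chr10:87858265-87937042 and Igf1r (ENSMUSG00000005533.10) at chr7:67952827-68233668, both on the plus strand. Igfbp3 (ENSMUSG00000020427.11) lies at chr11:7206086-7213923 on the minus strand, with Igfbp1 3539 bases away. Igfbp1 had 0 counts in the dTF-cKO, 1 in the cKO and 0 in the control. Igfbp4 (ENSMUSG00000017493.12) lies at chr11:99041244-99054392 and Igfbp6 (ENSMUSG00000023046.6) at chr15:102144362-102149511, both on the plus strand.

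The members farthest from the control in the dTF-cKO were Igfbp5, Igf1 and Igfbp2, and the 250 bases before their start sites are shown to let the promoters be compared. They come from RefSeq on GRCm38.p6, at chr1:72874866-72875115 on the minus strand for Igfbp5, chr10:87860861-87861110 on the plus strand for Igf1 and chr1:72824230-72824479 on the plus strand for the upstream of the 2 Igfbp2 start sites. Capitals mark matches, on either strand, to CTTTGA or CTTTGT (cores bound by TCF/LEF factors, the DNA-binding partners of beta-catenin), TGTGGT or TGCGGT (cores bound by RUNX factors), TATAAA (the TATA box) or GGGCGG (the GC box). The Igf1 window lies inside the GENCODE span of Igf1 given above. It therefore precedes an internal start site and not the annotated start of the gene. The motifs do not overlap one another in these windows.
Igfbp5: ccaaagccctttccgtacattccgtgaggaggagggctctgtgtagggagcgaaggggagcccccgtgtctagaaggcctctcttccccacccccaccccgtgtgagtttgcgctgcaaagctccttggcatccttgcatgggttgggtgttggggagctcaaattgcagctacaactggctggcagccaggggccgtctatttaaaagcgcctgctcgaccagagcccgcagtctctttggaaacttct
Igf1: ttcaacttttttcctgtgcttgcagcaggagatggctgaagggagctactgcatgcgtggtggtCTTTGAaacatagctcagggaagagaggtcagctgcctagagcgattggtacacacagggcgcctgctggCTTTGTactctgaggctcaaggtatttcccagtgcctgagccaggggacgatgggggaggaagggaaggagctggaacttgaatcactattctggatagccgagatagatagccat
Igfbp2: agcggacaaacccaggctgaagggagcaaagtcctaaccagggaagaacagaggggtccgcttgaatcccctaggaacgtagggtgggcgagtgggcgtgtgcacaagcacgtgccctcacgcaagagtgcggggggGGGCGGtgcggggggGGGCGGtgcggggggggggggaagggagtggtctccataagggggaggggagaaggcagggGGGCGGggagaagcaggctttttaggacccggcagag

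The Igfbp5 window held no exact match to these letters, and variant forms of the motifs were not searched. The Igf1 window held CTTTGA 186 bases and CTTTGT 116 bases before the start, and the Igfbp2 window held GGGCGG 113, 98 and 37 bases before it. Among 32851 RefSeq promoter windows of this length, 27.6% held a TCF/LEF core, 18.6% a RUNX core, 12.4% a TATA box and 32.7% a GC box. Among the other members, a TCF/LEF core was found for Igf1r (CTTTGA, 89 bases before the start), a RUNX core for Igfbp3 (TGTGGT, 223 bases) and a TATA box for Igfbp4 (28 bases) and Igfbp6 (148 bases). GC boxes numbered 4 in the Igfbp7 window and 2 in that of Igf1r, and the window of the second Igfbp2 start site held none of the motifs. All 8 members were matched to RefSeq windows by symbol. A match is a description of letters in this window.

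Levels can be compared between genes only per length, and here they are given as CPM per kilobase of annotated exons. In the control the order was Igfbp5 at 367, Igfbp4 at 239, Igfbp2 at 160.2, Igfbp3 at 85.2, Igfbp7 at 30.5, Igf1 at 14.4, Igfbp6 at 12.1 and Igf1r at 2.73 CPM per kilobase. Only Igf1 and Igfbp6 among those neighbours had overlapping counting intervals. In the cKO, Igfbp2 at 218, Igfbp5 at 212 and Igfbp4 at 204 CPM per kilobase overlapped from neighbour to neighbour, as did Igfbp3 at 62.7 and Igfbp7 at 62.3. The dTF-cKO was led by Igfbp2 at 694 CPM per kilobase, followed by Igfbp4 at 127, Igfbp3 at 33.4, Igfbp5 at 30.04 and Igfbp7 at 23.1. Of the steps among these last 3, neither exceeded the counting intervals. The ligand and receptor were at the bottom there, with Igf1r at 3.72 and Igf1 at 3.25 CPM per kilobase and intervals that overlapped each other and that of Igfbp6 at 4.18. Among 11637 measured genes with a length, Igfbp5 ranked 1861 in the dTF-cKO, 160 in the cKO and 76 in the control, counted from the highest level per length. Igfbp2 ranked 75 in the dTF-cKO, 158 in the cKO and 226 in the control. The 2 genes thus held almost the same rank at opposite ends of the study.

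**Figure D2:**
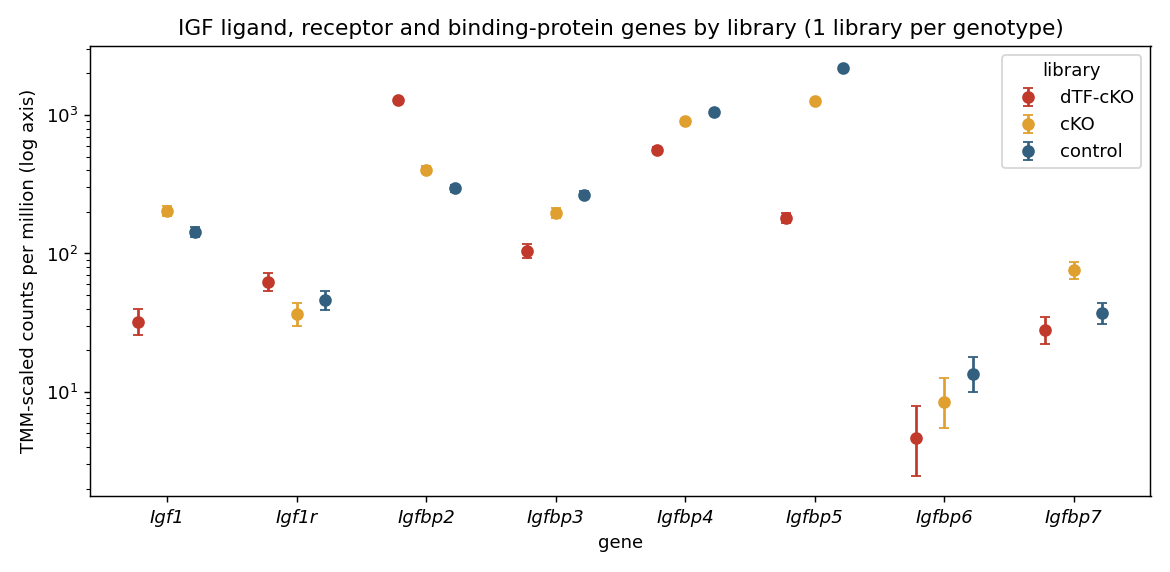
Level of each member in each library, as TMM-scaled CPM on a log axis, with the dTF-cKO, cKO and control from left to right within each gene and bars for the 95% counting interval. Igfbp2 is highest in the dTF-cKO at 1282 CPM, Igfbp5 is highest in the control at 2201 CPM, and Igf1 is lowest in the dTF-cKO at 32.2 CPM.

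In the cKO, with Cre and beta-catenin floxed on both chromosomes, the IGF genes lay near the control. Of the 8 members, 1 was higher by 2-fold or more and 0 were lower. Across all measured genes 9.66% were higher and 6.78% lower (16.4% in either direction), so these counts are near the background. The median log2 difference of the members was -0.28, beside 0.06 for all measured genes. Under the stroma scaling 0 members were higher and 2 lower, Igfbp5 and Igfbp6 (background 6.45% higher and 12.8% lower).

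The ligand and receptor came first in that comparison. Igf1, the secreted ligand made by mesenchymal and other stromal cells, had 570 counts in the cKO (202 CPM) and 510 in the control (143 CPM). It was 1.41-fold higher in the cKO (1.25 to 1.60), and 0.10 on the log2 scale under the stroma scaling. Igf1r, the receptor tyrosine kinase for IGF1 and IGF2, had 103 counts in the cKO (36.4 CPM) and 164 in the control (45.9 CPM). Its ratio was 0.794 (0.615 to 1.02), an interval that includes 1. Counted within a library, there were 5.53 reads of Igf1 for each read of Igf1r in the cKO (4.48 to 6.89) and 3.11 in the control (2.60 to 3.73).

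The member that passed 2-fold in the cKO was Igfbp7, a low-affinity relative of the other binding proteins that is secreted by vessel walls and stroma. Igfbp7 had 213 counts in the cKO (75.3 CPM) and 132 in the control (36.9 CPM), a 2.04-fold difference (1.63 to 2.56). Its log2 difference of 1.02 lay just past the threshold and came to between 0.62 and 1.16 over the other 5 scalings. The 13 endothelial markers summed to 1565 CPM in the cKO, against 1073 CPM in the control. Of these, 1 was higher (7.69%, background 9.66%), 0 were lower and none was at 0 counts. Higher too were 5 of 8 chondrocyte, 3 of 10 macrophage, 2 of 10 pericyte and smooth muscle, 2 of 9 dermal and 1 of 6 meningeal markers. Those lists had 0 lower, and all 12 epidermal markers were higher. Lower were 10 of 10 osteoblast, 9 of 9 skeletal muscle and 4 of 10 skeletal mesenchyme markers, with 0 higher. The part of these lists in the Igfbp7 difference from the control was not tested. Igfbp7 (chr5:77349240-77408041, minus strand) shares 85 exon bases with Polr2b on the other strand. The strand setting of the counting is not given in the sources used here, so reads there may belong to either gene.

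The other binding proteins of the cKO differed by less. Igfbp5, a binding protein that attaches to extracellular matrix and bone mineral, had 3591 counts in the cKO (1270.3 CPM) and 7870 in the control (2201 CPM). It was 1.73-fold lower (1.67 to 1.80), a log2 difference of -0.79 that came to -1.19 under the stroma scaling, and 8.96% of measured genes were further down. Igfbp2, which carries an integrin-binding motif and prefers IGF2, had 1140 counts in the cKO (403 CPM) and 1058 in the control (296 CPM), 1.36-fold higher (1.25 to 1.48), or 0.05 on the log2 scale under the stroma scaling. Both genes therefore stood on the same side of the control as in the dTF-cKO, at a smaller distance. Igfbp3, the main carrier of IGF in blood, was 1.36-fold lower (1.22 to 1.51), with 555 counts in the cKO and 953 in the control. Igfbp4, which mostly keeps IGF from the receptor, was 1.17-fold lower (1.12 to 1.24), with 2545 counts in the cKO and 3781 in the control. Igfbp6, which prefers IGF2, was sparse at 24 counts in the cKO and 48 in the control, and its interval included 1. Its log2 difference was -0.62, or -1.02 under the stroma scaling.

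The dTF-cKO library stood much further from the control. Of the 8 members, 4 were lower by 2-fold or more and 1 was higher. The background was 20.9% lower and 19.5% higher among all measured genes (40.3% in either direction). Igfbp6 is 1 of the 4 and passed the minimum of 5 CPM through the cKO and control, so its place there is tied to that minimum. With a mean of at least 20 CPM, 3 of 7 members were lower and 1 higher (background 15.4% and 21.9%). The members' median log2 difference was -1.13, beside 0.06 for all measured genes. Under the stroma scaling that median was 0.70 and the counts were 1 lower and 3 higher. Among all measured genes 4.54% were then lower and 75.8% higher.

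Igfbp5 was the lowest member. It had 505 counts in the dTF-cKO (180.4 CPM), against 3591 in the cKO and 7870 in the control (2201 CPM). The level was 12.2-fold lower than in the control (11.1 to 13.4), a log2 difference of -3.60 that 2.32% of measured genes exceeded downward. Of all 6 scalings, none turned this direction, and the stroma scaling gave -1.78. Of the 10 skeletal mesenchyme markers, 8 were lower and 0 higher in the dTF-cKO relative to the control (background 20.9% and 19.5%). Col1a1, a chain of type I collagen, stood at 5254 CPM in the dTF-cKO and 114625 CPM in the control. All 10 osteoblast markers were lower, with 1 of them at 0 counts in the dTF-cKO, and their sum was 347 CPM in the dTF-cKO and 6888 CPM in the control. All 10 were also lower in the cKO, at a sum of 1082 CPM. Other lists held lower markers in the dTF-cKO too. Skeletal muscle had 9 of 9 measured markers lower, meninges 5 of 6 (1 higher) and endothelium 8 of 13. Pericytes with smooth muscle had 6 of 10 lower (2 higher), dermis 5 of 9 (1 higher) and chondrocytes 4 of 8. Macrophages had 3 of 10 lower (2 higher), and all 12 epidermal markers were higher. The part of these markers in the Igfbp5 difference was not tested.

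Igf1 was the next lowest. It had 90 counts in the dTF-cKO (32.2 CPM), against 570 in the cKO (202 CPM) and 510 in the control (143 CPM). That was 4.44-fold lower than in the control (3.54 to 5.61), a log2 difference of -2.13 that came to -0.30 under the stroma scaling. The dTF-cKO library stood apart from both others here, since the cKO was above the control. The 10 macrophage markers, another source of IGF1, summed to 289 CPM in the dTF-cKO and 528 CPM in the cKO, against 314 CPM in the control. In the dTF-cKO 2 of them were higher than in the control and 3 lower, and none was at 0 counts. The 9 dermal markers summed to 1111 CPM in the dTF-cKO and 2173 CPM in the control, with 5 lower, 1 higher and none at 0 counts. The 13 endothelial markers summed to 332 CPM in the dTF-cKO and 1073 CPM in the control, with 8 lower, 0 higher and none at 0 counts. The part of these lists, and of the skeletal markers given above, in the Igf1 difference was not tested. Igf1os, the antisense transcript at the Igf1 locus, had 0 counts in every library, which allows up to 1.07 CPM in the dTF-cKO and 1.06 CPM in the cKO, against 0.839 CPM in the control.

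The receptor was not lower. Igf1r had 175 counts in the dTF-cKO (62.5 CPM) and 164 in the control (45.9 CPM), a ratio of 1.36 (1.10 to 1.70). Its log2 difference of 0.44 was positive under all 6 scalings and ran from 0.09 without the 20 most abundant genes to 2.27 under the stroma scaling. The dTF-cKO library held 0.514 reads of Igf1 for each read of Igf1r (0.394 to 0.667), against 3.11 in the control (2.60 to 3.73). This ratio of counts does not depend on the scaling of the libraries. Per kilobase of exons the dTF-cKO levels of Igf1 and Igf1r had overlapping intervals, as given above. Igf2, the other ligand and by far the more abundant, had 20646 counts in the dTF-cKO (7377 CPM), 17468 in the cKO (6179 CPM) and 25831 in the control (7225 CPM). There were 229 reads of Igf2 for each read of Igf1 in the dTF-cKO (187 to 285), 30.6 in the cKO (28.2 to 33.4) and 50.6 in the control (46.4 to 55.4).

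Igfbp2 went the other way. It had 3589 counts in the dTF-cKO (1282 CPM), against 1140 in the cKO (403 CPM) and 1058 in the control (296 CPM). The level was 4.33-fold higher than in the control (4.04 to 4.64), with 6.69% of measured genes further up, and higher under all 6 scalings, from 1.75 to 3.94 log2 units. The 12 epidermal markers, none at 0 counts, were all higher than in the control in both Cre-carrying libraries. Their summed level was 13841 CPM in the dTF-cKO and 23112 CPM in the cKO. Between the Cre-carrying libraries 3 of the 12 were higher in the dTF-cKO, 3 were lower and 6 were neither. The basal keratin Krt5 stood at 4524 CPM in the dTF-cKO and 2037 CPM in the cKO, whereas Krt10, a keratin of the layers above, stood at 322 CPM in the dTF-cKO and 6947 CPM in the cKO. The part of epidermal cells in the Igfbp2 level was not tested.

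The remaining binding proteins stood lower in the dTF-cKO relative to the control by smaller amounts, and each of them was higher under the stroma scaling. Igfbp3 had 293 counts in the dTF-cKO (105 CPM) and 953 in the control (267 CPM), 2.55-fold lower (2.23 to 2.91), or 0.48 log2 units higher under the stroma scaling. Igfbp6 had 13 counts in the dTF-cKO (4.64 CPM) and 48 in the control (13.4 CPM), 2.89-fold lower with a wide interval (1.54 to 5.82), or 0.42 higher under the stroma scaling. Igfbp4 had 1565 counts in the dTF-cKO (559 CPM) and 3781 in the control (1058 CPM). It was 1.89-fold lower (1.78 to 2.01), just inside the threshold at a log2 difference of -0.92, and 0.91 under the stroma scaling. Igfbp7 had 78 counts in the dTF-cKO (27.9 CPM) and 132 in the control (36.9 CPM), a ratio of 0.755 whose interval included 1 (0.563 to 1.006), or 1.43 log2 units higher under the stroma scaling. Only Igfbp5 and Igf1 among the members stood below the control under all 6 scalings, and only Igfbp2 and Igf1r stood above it.

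**Figure D3:**
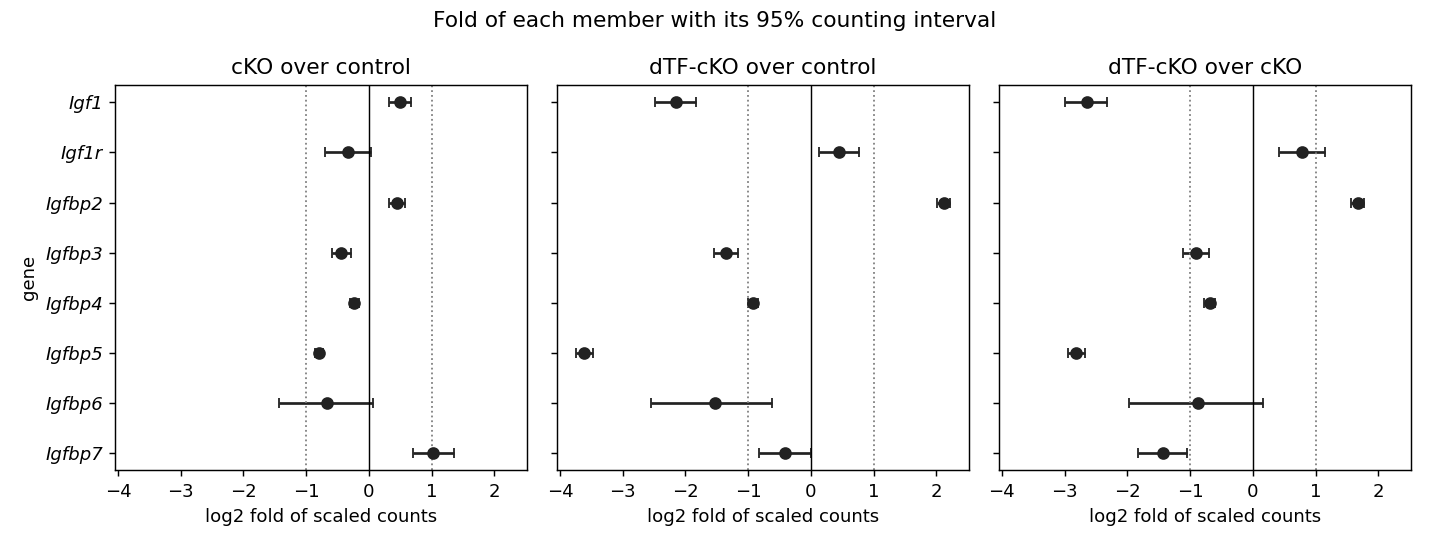
Log2 fold of scaled counts for each member, without a prior count, in the 3 comparisons, with the 95% counting interval as a bar and dotted lines at 2-fold. In the middle panel Igfbp5 lies at 12.2-fold lower and Igfbp2 at 4.33-fold higher; in the left panel every member lies within 2-fold of the control except Igfbp7 at 2.04-fold higher.

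Set directly against the cKO, the dTF-cKO had 3 members lower by 2-fold or more and 1 higher. The background was 20.5% lower and 14.5% higher (35% in either direction). Under the stroma scaling 0 members were lower and 4 higher (background 3.99% lower and 75.9% higher). Both comparisons with the control use the same control library, so the direct one is the way to set the Cre-carrying libraries apart. Igfbp5 was 7.04-fold lower in the dTF-cKO relative to the cKO (6.41 to 7.74) and Igf1 6.27-fold lower (5.01 to 7.92). Their log2 differences of -2.81 and -2.62 came to -0.98 and -0.79 under the stroma scaling, inside the 2-fold threshold. Igfbp7 was 2.704-fold lower (2.08 to 3.55), but 0.42 log2 units higher under the stroma scaling. The 13 endothelial markers summed to 332 CPM in the dTF-cKO and 1565 CPM in the cKO, with 11 lower and none at 0 counts. The 10 pericyte and smooth muscle markers summed to 1588 CPM in the dTF-cKO and 1235 CPM in the cKO, with 2 higher and 6 lower. The 8 chondrocyte markers summed to 542 CPM in the dTF-cKO and 3335 CPM in the cKO, with 0 higher and 7 lower. The part of these lists in the Igfbp7 difference was not tested. Igfbp2 was 3.18-fold higher in the dTF-cKO (2.97 to 3.40). Igf1r was 1.72-fold higher (1.34 to 2.21), and Igfbp3, Igfbp4 and Igfbp6 had log2 differences of -0.90, -0.69 and -0.79, which came to 0.93, 1.14 and 1.04 under the stroma scaling.

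**Figure D4:**
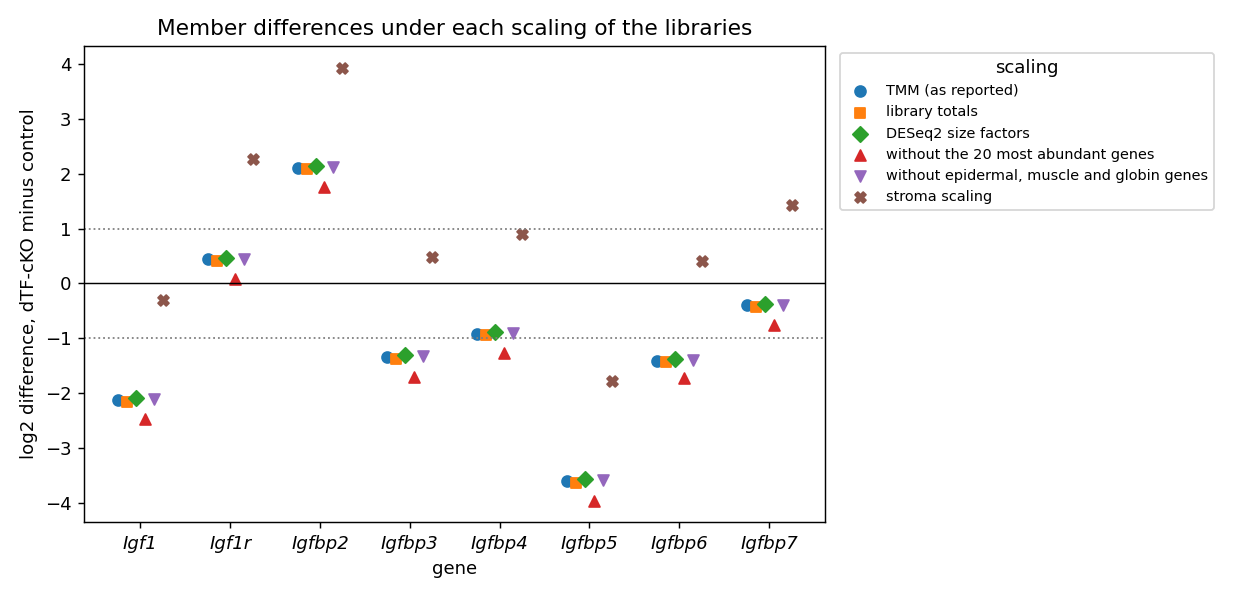
Log2 difference of each member, dTF-cKO minus control, under 6 scalings of the libraries (marker shapes), with dotted lines at 2-fold. Igfbp5 and Igf1 stay below 0 and Igfbp2 and Igf1r above 0 under all of them, whereas Igfbp3, Igfbp4, Igfbp6 and Igfbp7 cross to above 0 under the stroma scaling.

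The rest of the pathway was read from a list of 61 genes outside the members, of which 56 were measured. In the cKO 4 of them were at least 2-fold higher than in the control (7.14%, background 9.66%) and 0 lower (background 6.78%). Under the stroma scaling 0 were higher and 8 lower (background 6.45% higher and 12.8% lower). In the dTF-cKO 13 were higher (23.2%, background 19.5%) and 10 lower (17.9%, background 20.9%), with a median of 0.08, close to that of all genes. Under the stroma scaling 44 were higher and 2 lower (background 75.8% higher and 4.54% lower). As a whole the pathway therefore stood near the background, and its members are given by role.

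Proteases that cut binding proteins, and the inhibitors of those proteases, held the 3 lowest genes of the list in the dTF-cKO. Of 7 measured genes, 3 were lower (42.9%, background 20.9%) and 1 higher (14.3%, background 19.5%) in the dTF-cKO relative to the control. Htra1, a serine protease and the most abundant of the 7, is named with its values already known and stood at 249.8 CPM in the dTF-cKO and 227 CPM in the control. Pappa2, a protease that releases IGF by cutting IGFBP3 and IGFBP5, stood at 11.8 CPM in the dTF-cKO and 49.9 CPM in the cKO, against 75.5 CPM in the control, 6.41-fold lower in the dTF-cKO (4.45 to 9.496). Adam12, a metalloprotease reported to cut the same binding proteins, stood at 7.503 CPM in the dTF-cKO and 146.6 CPM in the control, 19.5-fold lower (12.6 to 31.8). Htra3, a serine protease with an IGFBP-like domain, was 8.21-fold lower (5.998 to 11.5). Stc2, a stanniocalcin that blocks the pappalysin proteases, stood at 43.2 CPM in the dTF-cKO and 10.97 CPM in the cKO, against 4.196 CPM in the control, 10.3-fold higher in the dTF-cKO (6.01 to 19.0). Stc2 passed the minimum of 5 CPM through the Cre-carrying libraries. Its place among the higher genes in both comparisons with the control is therefore tied to that minimum. The count ratio of Stc2 to Pappa2 was 3.67 in the dTF-cKO (2.48 to 5.56), 0.220 in the cKO (0.144 to 0.326) and 0.0556 in the control (0.0307 to 0.0933). In the cKO, Stc2 and its relative Stc1 were 2.61-fold (1.37 to 5.21) and 2.53-fold higher than in the control (1.40 to 4.73), from 31 and 36 counts in the cKO against 15 and 18 in the control.

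Receptor adaptors were split in the dTF-cKO, with 3 of 7 lower (42.9%, background 20.9%) and 1 higher (14.3%, background 19.5%). Irs1, the adaptor that links IGF1R to PI3K, stood at 20.01 CPM in the dTF-cKO and 141 CPM in the cKO, against 100.1 CPM in the control, 5.005-fold lower in the dTF-cKO relative to the control (3.77 to 6.76). Irs2, its close relative, is named with its values already known and stood at 87.5 CPM in the dTF-cKO and 17.7 CPM in the cKO, against 28.0 CPM in the control. The ratio of Irs2 to Irs1 reads was 4.38 in the dTF-cKO (3.26 to 5.96), 0.125 in the cKO (0.0912 to 0.168) and 0.279 in the control (0.222 to 0.350). The other lower adaptors, also named after their values were seen, were Grb10, which restrains IGF1R and the insulin receptor, at 3.83-fold lower (3.56 to 4.13), and Grb14 at 2.44-fold lower (1.12 to 5.87), which stood above the control under the stroma scaling. Grb14 passed the minimum of 5 CPM through the cKO and control, since it stood at 3.22 CPM in the dTF-cKO. Its place among the 3 lower adaptors is therefore tied to that minimum. Igf2r, the receptor that clears IGF2, was named in the same way as the lower gene among the other ligand and receptors and was 2.10-fold lower (1.94 to 2.28), but higher under the stroma scaling.

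Of 21 measured genes of the PI3K, AKT and mTOR branch, 4 were higher (19.0%, background 19.5%) and 2 lower (9.52%, background 20.9%) in the dTF-cKO. Pik3cb, a catalytic subunit of PI3K, stood at 100.4 CPM in the dTF-cKO and 19.5 CPM in the cKO, against 8.39 CPM in the control, 11.96-fold higher in the dTF-cKO relative to the control (8.20 to 18.1). It was also 2.32-fold higher in the cKO relative to the control (1.46 to 3.75). Eif4ebp1, a brake on translation that mTOR releases, was 3.69-fold higher in the dTF-cKO (3.11 to 4.41). The lower genes, named after their values were seen, were the regulatory subunits Pik3r1, 2.65-fold (2.12 to 3.35), and Pik3r2, 2.94-fold lower (2.35 to 3.70), and both were higher under the stroma scaling. Of 5 genes of the growth hormone axis, 1 was lower (20%, background 20.9%) and 0 higher (background 19.5%) in the dTF-cKO, near the background. The lower gene was Stat5b, a factor that drives Igf1 transcription in liver, again named after its value was seen. It was 2.11-fold lower (1.62 to 2.78), or higher under the stroma scaling.

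**Figure D5:**
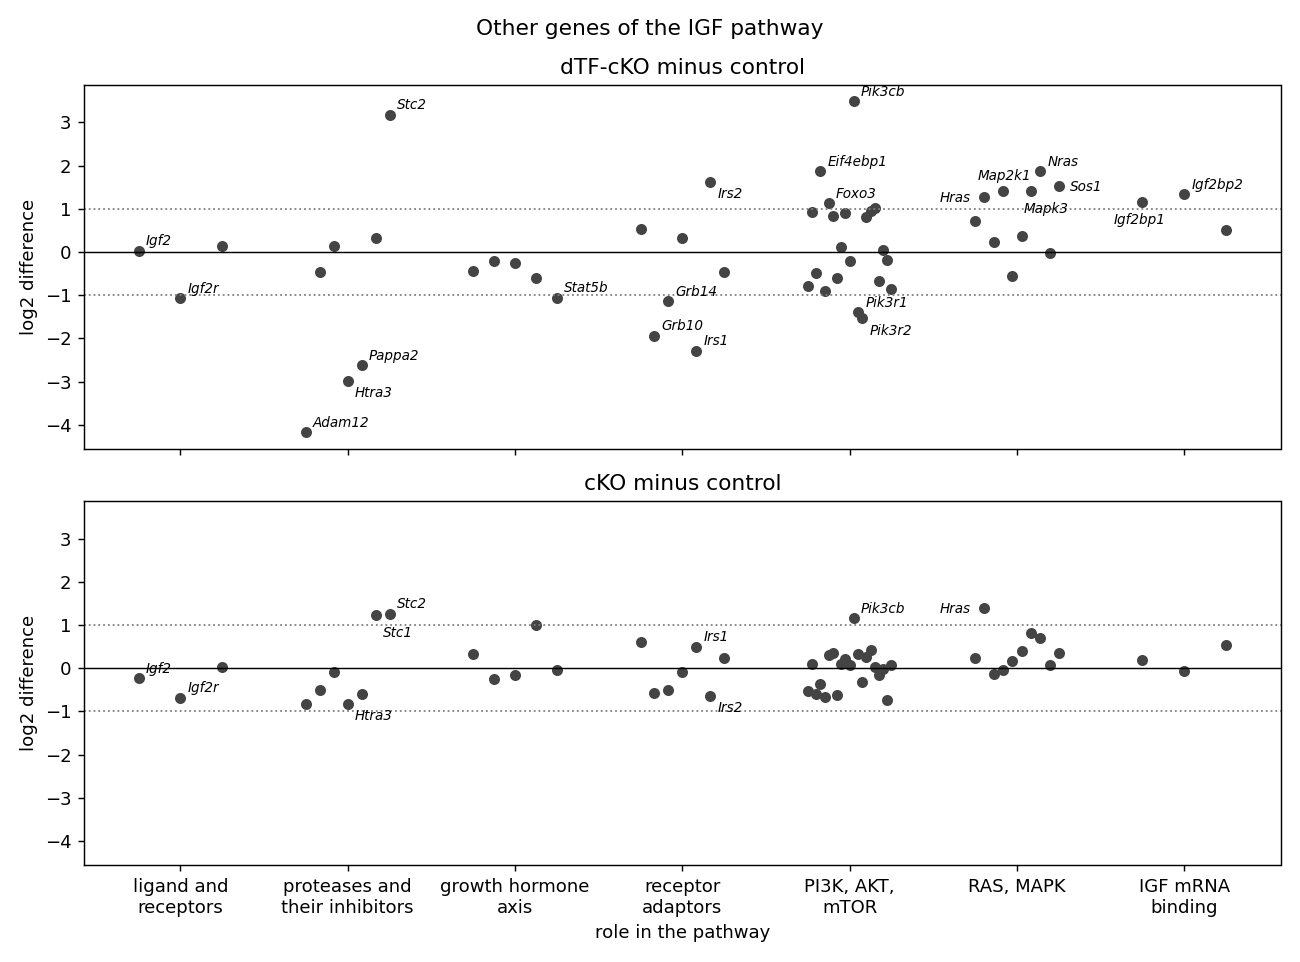
Log2 difference of each measured pathway gene outside the members, by role, for the dTF-cKO minus the control (upper panel) and the cKO minus the control (lower panel), with dotted lines at 2-fold. Adam12, Htra3 and Pappa2 lie lowest and Pik3cb and Stc2 highest in the upper panel, while 4 genes pass 2-fold in the lower one.

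Genes with the most similar pattern were sought among 4115 genes with a mean of at least 50 CPM, by the distance between pairs of log2 differences from the control (cKO, dTF-cKO). With 3 libraries this describes 2 values per gene, so many genes lie close by. Nearest to Igf1 were Cxcl12, a chemokine of stroma (distance 0.02), and Irs1 (0.16), and 6 genes lay within 0.25. Nearest to Igfbp5 were Pkd2 (0.13) and Col6a3, a collagen VI chain (0.17), and nearest to Igfbp2 were Eif1 (0.06) and Fth1 (0.07). Igfbp7 had the emptiest surroundings, with Fgfr3 (0.21) and Smpd1 (0.25) as the 2 genes within 0.25. For the others the nearest genes were D17Wsu104e and Yipf3 for Igf1r, Plod1 and Abl1 for Igfbp3, Tbc1d2b and Scube3 for Igfbp4, and Adamts10 and Ltbp3 for Igfbp6.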

How the data were processed

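The deposited values are raw read counts per gene, whole numbers under the header Count per the file headers, with no normalisation. The RNA was polyA RNA from primary cells, extracted with a Qiagen RNeasy kit and made into libraries with an Ion Total RNA-Seq kit, per the labels' protocols. The submitters' processing notes name mm10 as the build. For the aligner, the counter, the annotation and the strand setting, nothing is given in the sources used here. Counts were scaled with TMM factors over the 3 libraries in edgeR 4.0.16 under R 4.3.3. Log2 CPM used a prior count of 2, and folds are ratios of scaled counts without it, with an exact conditional (Clopper-Pearson) 95% interval from SciPy 1.17.1. No molecular identifiers are described, so PCR copies may count as separate reads, and intervals and the limit of 3 counts behind a count of 0 cover counting error only. Lengths are the union of GENCODE vM21 exons.

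Named genes were the 8 members, Igf2, up to 4 pathway genes per direction in each comparison with the control, and the 2 most abundant markers per cell type list, of which those beside a result are printed. The members and lists were chosen with earlier results of these data known. Adgre1 was found under its older symbol. Alternatives were 5 other scalings (among them DESeq2 1.42.0 size factors), 2 prior counts, 2 minimum levels, 2 fold rules, the counting interval alone, and shares per kilobase. The scaling without the 20 most abundant genes left out the 20 most abundant of each library, 33 genes in all.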

Additional observations from a re-analysis of the deposited data

How the results depend on the processing

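No paired analysis was possible because each genotype had 1 library, and no library could be left out. The counts of members changed under the stroma scaling, under other rules for calling a gene and through members near the threshold. Under the stroma scaling the cKO had 0 members higher and 2 lower than the control, the dTF-cKO had 3 higher and 1 lower than the control, and 4 higher and 0 lower than the cKO. It placed Igfbp3, Igfbp4, Igfbp6 and Igfbp7 above the control in the dTF-cKO (log2 differences of 0.48, 0.91, 0.42 and 1.43) and above the cKO (0.93, 1.14, 1.04 and 0.42), and it turned the ratio of the summed binding-protein counts to 1.98 against the control and 2.69 against the cKO. The shift comes from its construction, since it raised 75.8% of all measured genes to at least 2-fold higher in the dTF-cKO relative to the control and left 4.54% at least 2-fold lower. For the dTF-cKO relative to the cKO these shares were 75.9% and 3.99%. For the cKO relative to the control they were 6.45% and 12.8%. The members higher in the cKO were 0 with DESeq2 size factors, without the 20 most abundant genes, with a prior count of 10 and with a 3-fold rule, because Igfbp7 lies at the threshold. Without the 20 most abundant genes, 5 members were lower in the dTF-cKO relative to the cKO (background 27.3%), and the split of all genes between the dTF-cKO and the control was 13% higher and 28.4% lower. A 1.5-fold rule gave 2 members lower in the cKO relative to the control (background 13.2%). It gave 2 higher and 6 lower in the dTF-cKO relative to the cKO (background 26.7% and 30.4%). A 3-fold rule gave 2 lower in the dTF-cKO relative to the control (background 13.1%). Counting intervals that exclude 1 gave 3 higher and 3 lower in the cKO, 2 higher in the dTF-cKO relative to the control, and 2 higher and 5 lower in the dTF-cKO relative to the cKO. For this interval rule no share over all genes was computed, so its counts have no background beside them.

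Pathway counts moved in the same way. In the cKO against the control, 0 were higher and 8 lower under the stroma scaling (background 6.45% and 12.8%). There 1 was higher with a prior count of 10 (background 7.74%), 2 with a mean of at least 20 CPM (8.48%), and 0 with a 3-fold rule (5.71%). A 1.5-fold rule gave 8 higher and 9 lower (background 18.1% and 13.2%). In the dTF-cKO against the control, 44 were higher and 2 lower under the stroma scaling (background 75.8% and 4.54%), and 8 higher without the 20 most abundant genes (13%). Of the other fold rules, 1.5-fold gave 16 lower (background 29.5%) and 3-fold gave 5 higher and 5 lower (10.3% and 13.1%). In the dTF-cKO against the cKO, 45 were higher and 1 lower under the stroma scaling (background 75.9% and 3.99%). There were 13 higher and 15 lower with a 1.5-fold rule (background 26.7% and 30.4%), and 4 higher with a 3-fold rule (5.85%).

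Per kilobase of exons, long transcripts lost share of the binding-protein pool by construction. The dTF-cKO shares were then 76.2% for Igfbp2, 3.67% for Igfbp3, 13.9% for Igfbp4, 3.30% for Igfbp5, 0.458% for Igfbp6 and 2.53% for Igfbp7. The cKO shares were 28.5%, 8.18%, 26.6%, 27.6%, 0.996% and 8.13% in the same order of genes. The control shares were 17.9% for Igfbp2, 9.53% for Igfbp3, 26.8% for Igfbp4, 41.0% for Igfbp5, 1.35% for Igfbp6 and 3.42% for Igfbp7. Igfbp2 led the dTF-cKO and Igfbp5 the control either way, and in the cKO Igfbp2 and Igfbp5 came close to each other. Depth limits Igfbp6 most, with 13 counts in the dTF-cKO.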

Other observations

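The RAS and MAP kinase arm downstream of the receptor stood on the higher side in the dTF-cKO. Of 10 measured genes, 5 were at least 2-fold higher than in the control and 0 lower, beside a background of 19.5% higher, and the median log2 difference was 1.002. Nras, a RAS GTPase, stood at 254 CPM in the dTF-cKO and 112 CPM in the cKO, against 69.1 CPM in the control, 3.68-fold higher in the dTF-cKO relative to the control (3.18 to 4.27). Hras, its relative, stood at 135 CPM in the dTF-cKO and 146 CPM in the cKO, against 55.1 CPM in the control. In the cKO it was the 1 gene of this arm past 2-fold (10%, background 9.66% higher). It was 2.64-fold higher there than in the control (2.23 to 3.15). Sos1, which loads RAS with GTP, and the kinases Map2k1 and Mapk3 made up the 5 and were named after their values were seen, at 2.95-fold, 2.67-fold and 2.65-fold higher in the dTF-cKO.

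Among the proteins that bind IGF2 mRNA, 2 of 3 were higher in the dTF-cKO relative to the control (background 19.5%), again named after their values were seen. Igf2bp2 stood at 255 CPM in the dTF-cKO and 96.2 CPM in the cKO, against 101 CPM in the control, and Igf2bp1 at 89.0 CPM in the dTF-cKO and 45.6 CPM in the cKO, against 39.7 CPM in the control. Igf2bp3 stood at 67.9 CPM in the dTF-cKO and 69.3 CPM in the cKO, against 47.6 CPM in the control. Counts of Igf2os, antisense to Igf2 and sharing 98 exon bases with it, were 12 in the dTF-cKO, 63 in the cKO and 74 in the control, and without strand information they may hold reads of either gene.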
